A study of Homo sapiens with 18 samples.

Results

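The genes of cholesterol synthesis and uptake are 29 genes of the 58051 in the deposited table, listed by symbol and grouped by role. They comprise 7 enzymes from acetyl-CoA to farnesyl diphosphate, 11 enzymes from squalene to cholesterol, 5 regulators of the pathway, and 6 genes of sterol transport and efflux. All 29 symbols were matched to a gene identifier, and 27 passed the filter on low counts. The uptake transporter NPC1L1 (0 to 2 counts per library) and the sterol exporter ABCG1 (0 to 1 count) were not tested, and at these depths their transcripts were at or below a floor of 3 counts in every library.

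Cells make cholesterol from acetyl-CoA through mevalonate and squalene, and take it up from lipoproteins. When sterols in the endoplasmic reticulum run low, SCAP escorts the membrane-bound precursors of SREBP-1 and SREBP-2 (genes SREBF1 and SREBF2) to the Golgi, where they are cleaved to the forms that activate transcription of the synthesis enzymes. When sterols are plentiful, the INSIG proteins hold SCAP back, and liver X receptors activate the exporters ABCA1 and ABCG1.

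Transcripts were measured by mRNA sequencing in SKMEL2 and SKMEL30, melanoma cell lines that both carry an NRAS codon 61 mutation. Each line had been stably transduced with the tet-ON vector pTRIPZ carrying Myc-tagged PPP2R3B, a regulatory subunit of protein phosphatase 2A, and selected with puromycin, without a statement of whether cells were cloned. Each line had 3 libraries of uninduced cells, 3 of cells given doxycycline for 6 h and 3 of cells given it for 18 h, 18 libraries in all. The labels give the later time as 18 h, whereas the study's text names an earlier hour. Uninduced cells carried the vector without doxycycline, and no library of cells given doxycycline without PPP2R3B was analysed here. The labels do not say that replicates were separate cultures, so p-values measure only the spread between these libraries, and each line stands for itself alone.

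Totals ranged from 13402645 to 22383470 counts per library. PPP2R3B, counted over vector and endogenous transcripts together, was between 17.2 and 24.4 CPM (read counts scaled to a common library total) in the 6 uninduced libraries and between 343 and 617 CPM in the 12 induced ones. The melanocyte genes MITF, MLANA, PMEL, DCT and SOX10 were above 250 CPM in every library. TYR was at 410 to 456 CPM in SKMEL2 and at 232 to 250 CPM in SKMEL30. Among markers of other cells, the keratins KRT5 and KRT14 were at most 8.27 CPM apart from the third SKMEL30 library at 6 h (37.5 and 26.4 CPM), LUM was at 27.5 to 32.7 CPM in SKMEL30, and LYZ at 13.9 to 18.9 CPM in SKMEL2. The part of these transcripts in the results was not tested.

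Promoters of 4 members are shown because their transcripts set out the pattern described below: HMGCS1, FDPS and INSIG1 were lower in SKMEL2 than in SKMEL30, and SREBF2 was higher. Each is the 250 bases before the RefSeq start of the gene, on GRCh38.p14, read 5′ to 3′ on the strand of the gene. They lie at chr22:41832855-41833104 (plus strand), chr5:43313413-43313662 (minus strand), chr1:155308616-155308865 (plus strand) and chr7:155297628-155297877 (plus strand). Capitals mark TCACNCCAC, a form of the sterol regulatory element to which SREBP binds, CCAAT, the box bound by NF-Y, and GGGCGG, the box bound by SP1, each on either strand.
SREBF2: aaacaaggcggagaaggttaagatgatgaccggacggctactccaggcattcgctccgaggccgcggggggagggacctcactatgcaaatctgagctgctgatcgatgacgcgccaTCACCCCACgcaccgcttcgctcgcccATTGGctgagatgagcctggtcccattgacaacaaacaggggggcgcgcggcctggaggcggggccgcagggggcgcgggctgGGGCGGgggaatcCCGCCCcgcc
HMGCS1: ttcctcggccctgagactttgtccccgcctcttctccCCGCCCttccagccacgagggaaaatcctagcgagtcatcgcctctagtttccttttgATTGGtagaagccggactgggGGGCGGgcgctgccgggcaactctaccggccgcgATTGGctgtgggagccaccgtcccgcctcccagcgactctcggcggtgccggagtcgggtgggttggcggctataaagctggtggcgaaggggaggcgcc
FDPS: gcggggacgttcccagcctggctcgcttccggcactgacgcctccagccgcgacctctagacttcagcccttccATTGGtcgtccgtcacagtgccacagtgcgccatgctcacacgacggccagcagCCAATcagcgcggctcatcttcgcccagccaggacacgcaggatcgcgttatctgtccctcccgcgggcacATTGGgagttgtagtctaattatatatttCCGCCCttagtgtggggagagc
INSIG1: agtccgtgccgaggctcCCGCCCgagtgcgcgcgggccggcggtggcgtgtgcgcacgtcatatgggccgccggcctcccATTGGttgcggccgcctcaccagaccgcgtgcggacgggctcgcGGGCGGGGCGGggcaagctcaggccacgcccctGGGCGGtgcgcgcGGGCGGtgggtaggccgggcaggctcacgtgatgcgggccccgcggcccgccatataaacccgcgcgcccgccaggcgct
The SREBF2 promoter holds TCACNCCAC beginning 133 bases before the start and a CCAAT box beginning 106 bases before it.

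Promoter sequences from 250 bases before to 50 bases after the start were found for 25 members, 5 of which have more than 1 start. The members without one were ABCG1, ACAT2, FDFT1 and SQLE. CCAAT, searched on both strands, was in a promoter of 18 of the 25 members (72%), against 34.6% of all 35116 promoters and 39.7% of the 27305 genes in the reference. Of the 13 members with a promoter whose transcripts were lower in SKMEL2 by more than 1 on the log2 scale, 11 held the CCAAT box. The GC box GGGCGG was in 23 of the 25 (92%), against 45% of all promoters and 48.3% of genes. TCACNCCAC was found in SREBF2 alone, and in 1.13% of all promoters and 1.39% of genes. These matches describe letters in a fixed window, different motifs share no base in the promoters printed, the run GGGCGGGGCGG of INSIG1 is a pair of GGGCGG matches that share a base, and other forms of the sterol element were not searched.

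Uninduced SKMEL2 cells had lower levels of nearly the whole synthesis pathway than uninduced SKMEL30 cells. Of the 27 members tested, 23 were called different (Benjamini-Hochberg adjusted p under 0.05, edgeR quasi-likelihood test on all 18 libraries), a share of 85.2%. Among all 17133 genes tested 75.9% were called, so a call as such was common between these lines. The direction and size of the members' differences stood farther from the background. Of the members, 20 were called lower in SKMEL2 (74.1%), against 35.8% of all genes, and 3 were called higher, against 40.1%. In 14 members (51.9%) the call was for a level lower by more than 1 on the log2 scale, against 14.0% of all genes. The median log2 fold change, SKMEL2 over SKMEL30, was -1.08 over the members and 0.05 over all genes. The labels name no batch, so any batch that goes with the line cannot be told apart from the line.

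**Figure D1:**
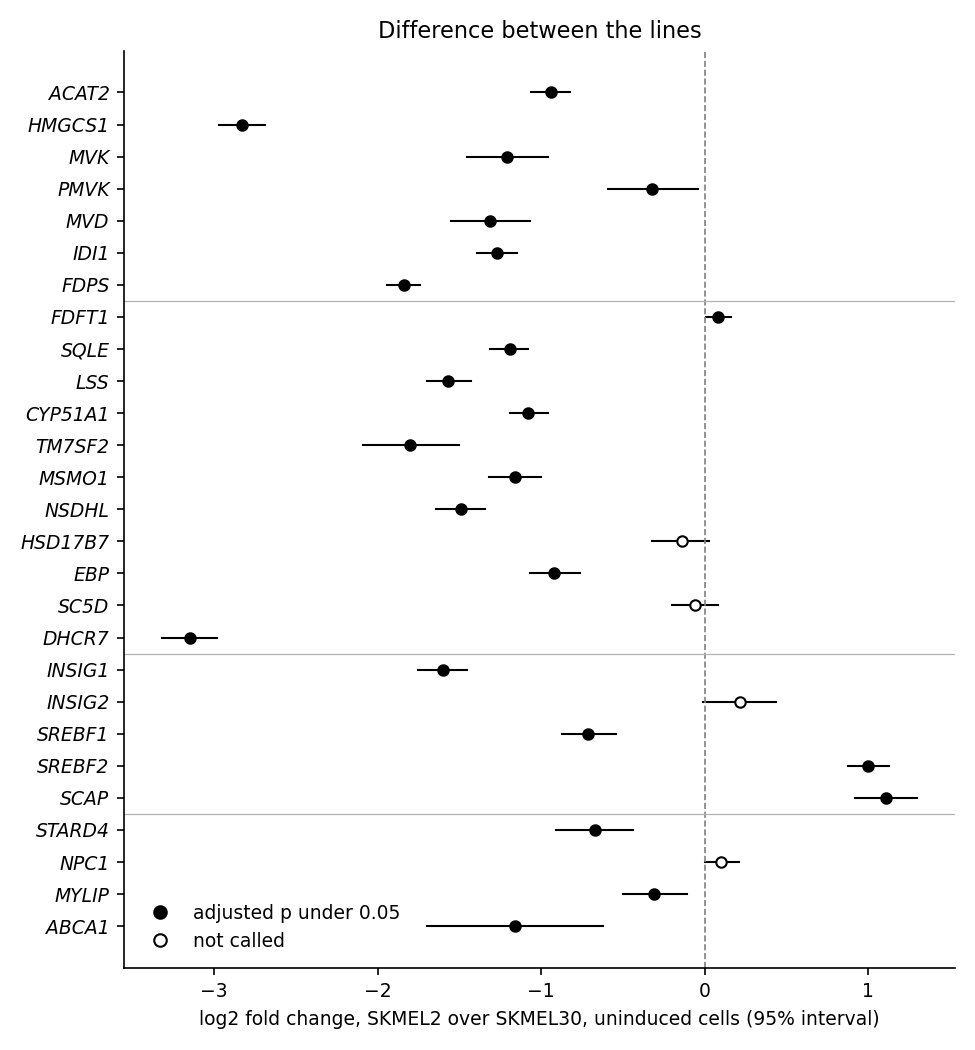
Log2 fold change of each of the 27 members tested between uninduced SKMEL2 and uninduced SKMEL30 (points, with 95% intervals; 3 libraries each), ordered by role from the top as early mevalonate enzymes, enzymes from squalene to cholesterol, regulators, and transport and efflux. Most points lie left of 0, the farthest being DHCR7 at -3.15 and HMGCS1 at -2.83, while SREBF2 and SCAP lie near 1 to the right.

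All 7 enzymes of the early mevalonate pathway were called lower in SKMEL2, with log2 fold changes from -2.83 to -0.32 and a median of -1.27. The greatest difference among them was in HMGCS1, the synthase that makes HMG-CoA (chromosome 5, 43287470 to 43313412 on GRCh38.p14). HMGCS1 was at 32.5, 32.6 and 28.7 CPM in the uninduced SKMEL2 libraries and at 215, 224 and 228 CPM in those of SKMEL30. These ranges lie far apart, and the level was 7.12-fold lower in SKMEL2 (95% interval 6.46 to 7.84, edgeR adjusted p = 5.39e-18).

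FDPS, which makes farnesyl diphosphate, was at 62.2, 61.9 and 59.4 CPM in uninduced SKMEL2 and at 214, 214 and 231 CPM in SKMEL30. Its level was 3.59-fold lower in SKMEL2 (95% interval 3.35 to 3.84, edgeR adjusted p = 1.62e-17). MVD, the mevalonate diphosphate decarboxylase (log2 fold change -1.31), IDI1, the isopentenyl diphosphate isomerase (-1.27), and MVK, mevalonate kinase (-1.21), were lower by more than 1. ACAT2, the cytosolic acetoacetyl-CoA thiolase at the head of the pathway, was lower by a log2 fold change of -0.94 (standard error 0.06). PMVK, phosphomevalonate kinase, was closest to equal at -0.32 (standard error 0.13, edgeR adjusted p = 0.0348), and its call was lost when any of 3 of the 6 uninduced libraries was left out.

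Among the 11 enzymes from squalene to cholesterol, 8 were called lower in SKMEL2 and 1 higher, with a median log2 fold change of -1.16. DHCR7, the reductase of the last step (chromosome 11, 71427287 to 71449043 on GRCh38.p14), showed the largest difference of any member. Over all 9 libraries of a line, the level reached a median of 21.7 and a highest value of 26.6 CPM in SKMEL2, against a lowest value of 187 and a median of 203 CPM in SKMEL30. The uninduced level was 8.88-fold lower in SKMEL2 (95% interval 7.90 to 9.99, edgeR adjusted p = 1.80e-17).

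The other enzymes called lower were TM7SF2, a sterol reductase (log2 fold change -1.80), LSS, lanosterol synthase (-1.57), NSDHL, a sterol dehydrogenase (-1.49), SQLE, the squalene epoxidase (-1.19), MSMO1, the methylsterol oxidase (-1.16), CYP51A1, the lanosterol demethylase (-1.08), and EBP, a sterol isomerase (-0.92). Their standard errors were 0.05 to 0.14. HSD17B7, a ketosteroid reductase of the pathway (-0.14, standard error 0.08), and SC5D, the sterol desaturase (-0.06, standard error 0.07), did not pass the test. Without the first uninduced SKMEL2 library HSD17B7 was called lower (-0.22, edgeR adjusted p = 0.0299), and its values with each library left out ranged from -0.22 to -0.07. SC5D was 0.04 higher in SKMEL2 when libraries were scaled by their totals alone.

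FDFT1, squalene synthase, stood apart from its neighbours in the pathway. Its gene lies on chromosome 8 from 11795582 to 11839298 (GRCh38.p14). It was the most abundant member per transcript length in both lines, at 197 CPM per kb of transcript in uninduced SKMEL2 and 186 CPM per kb in SKMEL30. The log2 fold change was 0.08 (standard error 0.04, edgeR adjusted p = 0.0470). Its call was lost when any of the 6 uninduced libraries was left out, with log2 fold changes from 0.05 to 0.08. The enzymes on either side of it, FDPS (-1.84) and SQLE (-1.19), were both lower in SKMEL2.

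The regulators did not share a direction. SREBF2, which encodes the SREBP-2 precursor (chromosome 22, 41833105 to 41907305 on GRCh38.p14), was at 590, 549 and 571 CPM in uninduced SKMEL2 and at 281, 290 and 283 CPM in SKMEL30. The level of SREBF2 was higher in SKMEL2 by 1.84- to 2.19-fold (95% interval, edgeR adjusted p = 9.17e-12). SCAP, its escort protein, was higher by a log2 fold change of 1.11 (standard error 0.09, edgeR adjusted p = 1.05e-09). These were the only members whose levels in all 9 SKMEL2 libraries lay above those in all 9 SKMEL30 libraries.

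INSIG1, the sterol-dependent anchor of SCAP and itself an SREBP target, was at 46.4, 43.4 and 39.2 CPM in uninduced SKMEL2 and at 120, 134 and 137 CPM in SKMEL30. It was 3.04-fold lower in SKMEL2 (95% interval 2.74 to 3.36, edgeR adjusted p = 6.94e-14), a difference in the direction of the enzymes. SREBF1, the precursor better known for fatty acid synthesis, was also lower (log2 fold change -0.71, standard error 0.08), while INSIG2 did not pass the test (0.22, standard error 0.11). INSIG2 was called higher in SKMEL2 where every library had to hold 10 counts (0.27, edgeR adjusted p = 0.0298), with library totals alone (0.32, edgeR adjusted p = 0.0160) and without the third uninduced SKMEL2 library (0.34, edgeR adjusted p = 0.00590).

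Of the 4 transport and efflux members tested, 3 were called lower in SKMEL2. ABCA1, which exports cholesterol to apolipoproteins, was low, with 13 to 56 counts per library over all 18 libraries. It was at 1.05, 1.19 and 0.748 CPM in uninduced SKMEL2 and at 2.82, 1.53 and 2.34 CPM in SKMEL30. Its log2 fold change was -1.16 (standard error 0.26, edgeR adjusted p = 0.000438), with no overlap between the uninduced groups. STARD4, a soluble sterol carrier, was lower by -0.67 (standard error 0.11), and MYLIP, the ubiquitin ligase that degrades lipoprotein receptors, by -0.31 (standard error 0.09). With libraries scaled by totals alone MYLIP was no longer called. NPC1, which moves cholesterol out of lysosomes, did not pass the test (0.10, standard error 0.05, edgeR adjusted p = 0.0693), although it did under several alternatives.

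**Figure D2:**
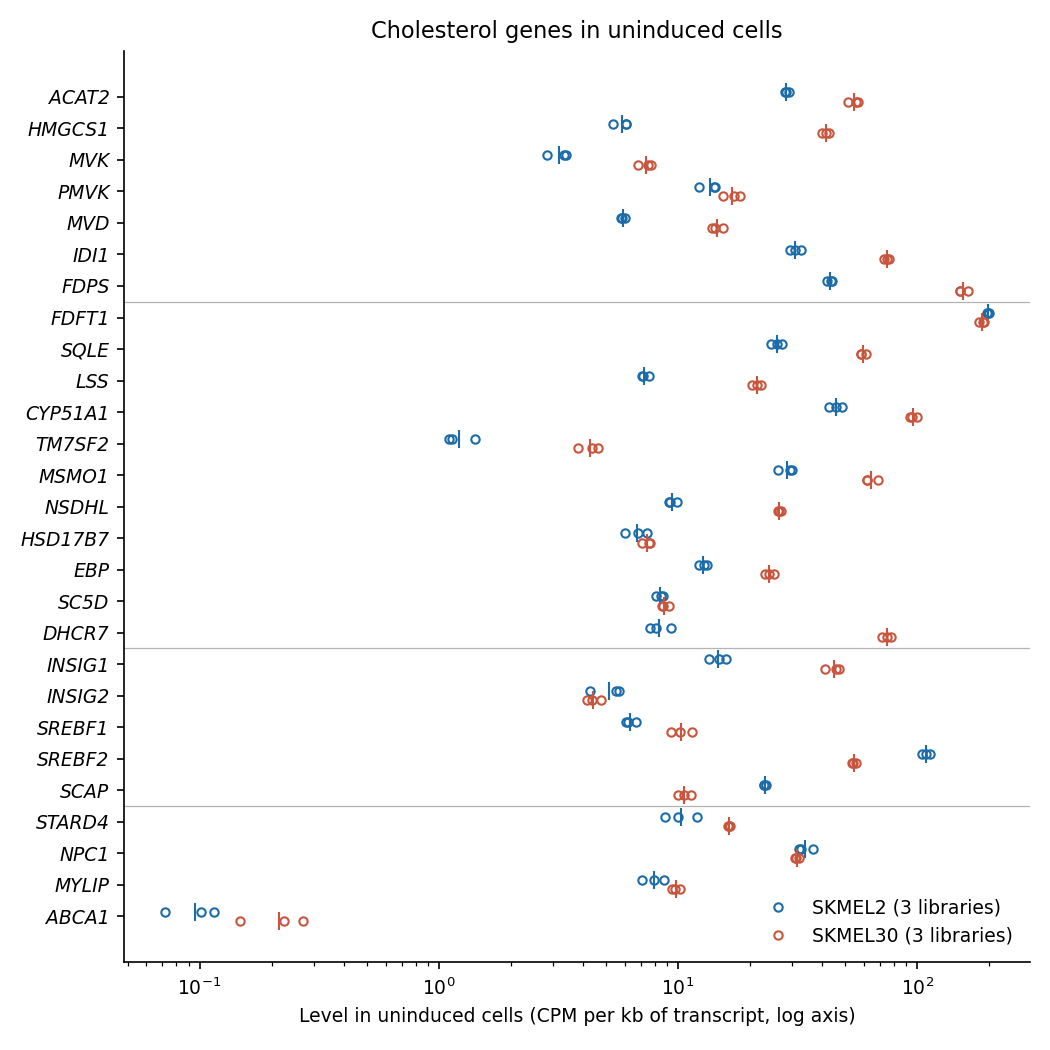
Level of each tested member in uninduced cells, in CPM per kb of transcript on a log axis, one open circle per library (3 per line) with a bar at the mean. FDFT1 is highest in both lines and ABCA1 lowest, and the SKMEL2 circles lie left of those of SKMEL30 for most enzymes.

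Compared per kb of transcript, the order of levels differed between the lines. In uninduced SKMEL2 it began with FDFT1 (197 CPM per kb), SREBF2 (109), CYP51A1 (45.6) and FDPS (43.2), and of these neighbours CYP51A1 and FDPS overlapped in their libraries. SKMEL30 began with FDFT1 (186), FDPS (155), CYP51A1 (96.3), DHCR7 (74.6) and IDI1 (74.5), and DHCR7 and IDI1 overlapped. DHCR7, near the top in SKMEL30, was at 8.36 CPM per kb in SKMEL2, between SC5D and MYLIP, whose library ranges overlapped with it. Over the whole order, 15 pairs of neighbours overlapped in SKMEL2 and 9 in SKMEL30. Transcript lengths came from a later annotation than the one used for counting, so values per kb are approximate.

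The difference between the lines was present at each time. All 9 SKMEL2 libraries lay below all 9 SKMEL30 libraries for 17 of the 27 tested members, against 29.8% of all genes, and above for 2, against 32.8%. The 18 synthesis enzymes summed to 1120, 1096 and 1079 CPM in uninduced SKMEL2 and to 2192, 2239 and 2312 CPM in uninduced SKMEL30. After induction the sums were 1148, 1057 and 1079 CPM at 6 h and 1097, 1051 and 1093 CPM at 18 h in SKMEL2. In SKMEL30 they were 2187, 2221 and 2179 CPM at 6 h and 2175, 2199 and 2187 CPM at 18 h. The lines did not overlap, whereas the induced and uninduced libraries of either line did. In bulk samples such as these, fewer cells that express a gene and less RNA per cell cannot be told apart.

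**Figure D3:**
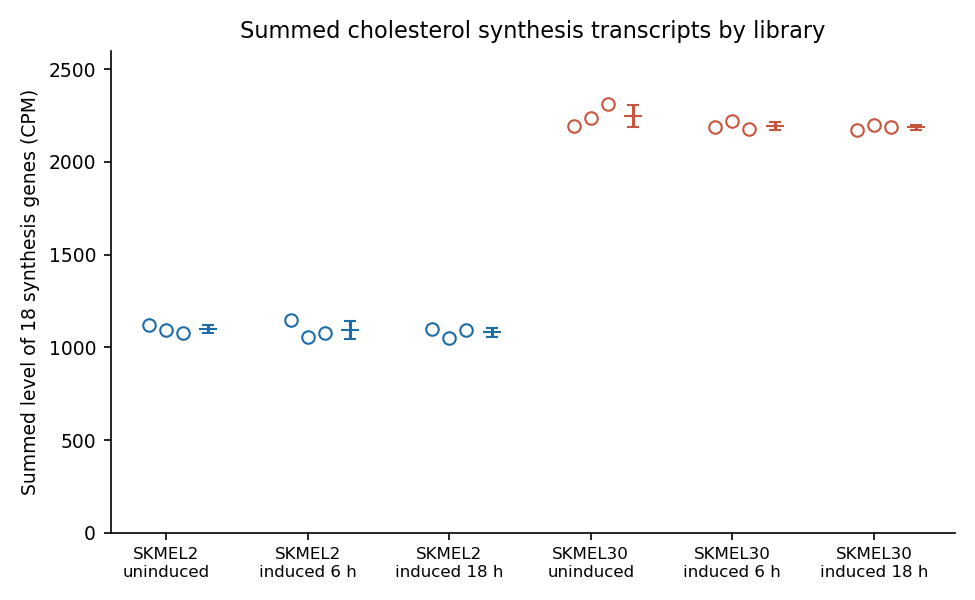
Summed level of the 18 synthesis enzymes in CPM for each of the 18 libraries (circles), with the mean and SD of each group of 3 beside them. The SKMEL2 libraries lie between 1051 and 1148 CPM and the SKMEL30 libraries between 2175 and 2312 CPM, at every time.

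Induction of PPP2R3B called no member in either line. In SKMEL2 at 6 h, 0 of 27 members passed the edgeR test, where 0.0124% of all genes did, and no member had an unadjusted p under 0.05, where 543 of 16120 genes did. Without the second library at 6 h, 5 members had an unadjusted p under 0.05 (lowest edgeR adjusted p = 0.528). The share of all genes was not counted for that fit. At 18 h in SKMEL2, 0 of 27 members passed, against 0.0124% of genes, with 1 member and 750 of 16120 genes at an unadjusted p under 0.05. Of SKMEL30 members, 0 of 27 passed at 6 h, against 0.206% of genes, with 3 members and 968 of 15026 genes at an unadjusted p under 0.05. At 18 h, 0 of 27 passed, against 0.293%, with 5 members and 1374 of 15026 genes at an unadjusted p under 0.05. With so few genes called in all, 0 of 27 adjusted calls is near the background. DESeq2 called 0 members in the same 4 comparisons, although at 18 h in SKMEL30 it gave no adjusted p for 13 of them.

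The intervals give the size of change that these libraries allow. In SKMEL30 the 95% interval of the log2 fold change lay within 0.5 of 0 for 26 of 27 members at each time, and within 0.25 for 24. For SKMEL2, whose replicates varied more, the corresponding counts were 22 at 6 h and 23 at 18 h within 0.5, and 11 at each time within 0.25. ABCA1 had the widest interval, from -0.82 to 0.51 at 6 h in SKMEL2, and its interval reached 1.00 at 18 h in SKMEL2 and 0.77 at 18 h in SKMEL30. Members' log2 fold changes ranged from -0.15 to 0.26 (median 0.05) at 6 h and from -0.37 to 0.38 (median 0.02) at 18 h in SKMEL2. Those of SKMEL30 ranged from -0.12 to 0.20 (median -0.03) at 6 h and from -0.10 to 0.30 (median -0.03) at 18 h. The median over all genes was 0.00 in each of these 4 comparisons.

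**Figure D4:**
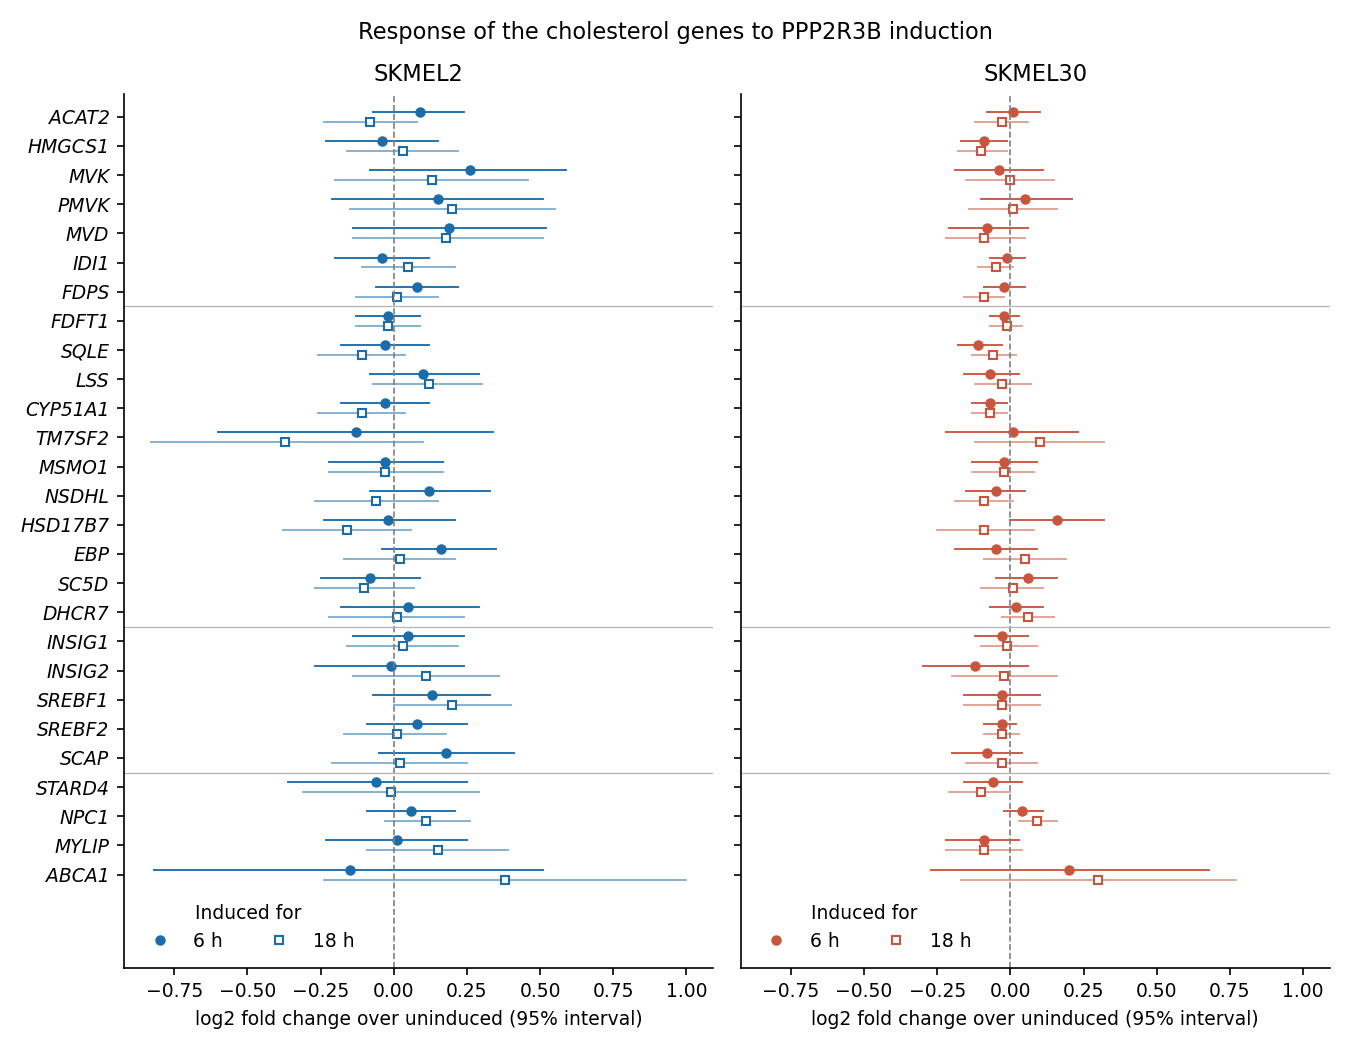
Log2 fold change of each of the 27 tested members over uninduced cells after 6 h (filled circles) and 18 h (open squares) of induction, with 95% intervals, in SKMEL2 (left) and SKMEL30 (right), 3 libraries per group. No member passed the adjusted test. Intervals are narrower in SKMEL30, where 19 of 27 points lie below 0 at each time.

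In SKMEL30, 19 of the 27 members (70.4%) had a value below 0 at 6 h and 19 at 18 h, against 49.7% of all genes at each time. These comparisons share the uninduced libraries, and each value is small. In the first uninduced library 3 of 18 synthesis enzymes were above their group mean, and in the third 15 of 18 were. Without the third library, 1 member was at an unadjusted p under 0.05 at each time, against 3 at 6 h and 5 at 18 h with all libraries. Without the first uninduced library it was 4 and 5, and without the second 2 and 4. The share of all genes at that p was not counted for these fits. Over all genes, 31 passed the adjusted edgeR test at 6 h and 44 at 18 h with all libraries. These counts were 20 and 29 without the third library, 16 and 25 without the first, and 28 and 29 without the second. SQLE, whose product carries out the first oxygenation of squalene, had the smallest p at 6 h. It was at 173, 173 and 181 CPM in uninduced cells, at 169, 167 and 155 CPM at 6 h and at 170, 167 and 169 CPM at 18 h. All 6 induced libraries were below the 3 uninduced ones, with a log2 fold change of -0.11 at 6 h (standard error 0.03, edgeR adjusted p = 0.544). SQLE was the only one of 27 members with that order in SKMEL30, where 2.24% of all genes had it, and no member lay wholly above, against 2.14%.

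CYP51A1 was at 296, 301 and 315 CPM in uninduced SKMEL30, at 289, 298 and 284 CPM at 6 h and at 290, 287 and 290 CPM at 18 h. Its log2 fold change was -0.07 at both times (standard error 0.03, edgeR adjusted p = 0.739 and 0.455), and 1 library at 6 h overlapped with the uninduced ones. HMGCS1 stood at 215, 224 and 228 CPM in uninduced SKMEL30, at 199, 221 and 206 CPM at 6 h and at 208, 215 and 202 CPM at 18 h. The 6 h group overlapped with the uninduced one and the 18 h group met it at 215 CPM, with log2 fold changes of -0.09 and -0.10 (standard error 0.04 each, edgeR adjusted p = 0.750 and 0.468).

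FDPS in SKMEL30 was at 214, 214 and 231 CPM uninduced, at 216, 214 and 218 CPM at 6 h and at 204, 209 and 206 CPM at 18 h. The 18 h libraries were the lowest, with a log2 fold change of -0.09 (standard error 0.03, edgeR adjusted p = 0.404). NPC1 had the smallest p of the members at 18 h, in the other direction. It was at 149, 153 and 147 CPM in uninduced SKMEL30, at 151, 153 and 158 CPM at 6 h and at 162, 156 and 161 CPM at 18 h. The 18 h libraries lay above the uninduced ones by a log2 fold change of 0.09 (standard error 0.03, edgeR adjusted p = 0.329).

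In SKMEL2 the members with the smallest p at 6 h were EBP and MVK. EBP was at 14.9, 14.5 and 13.7 CPM uninduced and at 15.5, 15.1 and 17.4 CPM at 6 h, a log2 fold change of 0.16 (standard error 0.09, edgeR adjusted p = 0.989). These groups did not overlap, but at 18 h EBP was at 14.5, 14.1 and 15.2 CPM, within reach of the uninduced libraries. MVK was at 9.50, 9.65 and 8.01 CPM uninduced and at 10.8, 8.50 and 13.1 CPM at 6 h, overlapping groups with a log2 fold change of 0.26 (standard error 0.15, edgeR adjusted p = 0.989) that ranged from 0.09 to 0.41 with each library left out.

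At 18 h in SKMEL2, SREBF1 and NPC1 had the smallest p. SREBF1 was at 29.8, 30.3 and 32.7 CPM uninduced and at 38.8, 32.9 and 34.9 CPM at 18 h, groups that did not overlap, with a log2 fold change of 0.20 (standard error 0.09, edgeR adjusted p = 0.987). An exact permutation test of 3 against 3 libraries cannot give a p under 0.1, so such separation alone is weak. The share of all genes with it was not counted. NPC1 was at 175, 155 and 153 CPM uninduced and at 179, 165 and 179 CPM at 18 h, with overlapping groups and a log2 fold change of 0.11 (standard error 0.07, edgeR adjusted p = 0.987). No member of SKMEL2 had all 6 induced libraries above the 3 uninduced ones (1.24% of all genes did) or below them (1.28%).

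Genes known to report on sterol sensing stayed near their uninduced levels. INSIG1 in SKMEL2 was at 49.5, 41.4 and 42.1 CPM at 6 h and at 45.8, 41.3 and 44.5 CPM at 18 h, of which only 49.5 CPM lay outside the uninduced range of 39.2 to 46.4 CPM. In SKMEL30, INSIG1 was at 128, 127 and 127 CPM at 6 h and at 126, 130 and 133 CPM at 18 h, all inside the uninduced range of 120 to 137 CPM. Its log2 fold changes were 0.05 and 0.03 in SKMEL2 (standard error 0.09 each) and -0.03 and -0.01 in SKMEL30 (standard error 0.04 each).

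SREBF2 in SKMEL2 was at 593, 538 and 672 CPM at 6 h and at 598, 545 and 579 CPM at 18 h, on both sides of the uninduced libraries. In SKMEL30, SREBF2 was at 271, 276 and 287 CPM at 6 h and at 277, 276 and 282 CPM at 18 h, overlapping with the uninduced 281 to 290 CPM. HMGCS1 in SKMEL2 was at 33.7, 28.7 and 28.3 CPM at 6 h and at 33.5, 31.7 and 30.4 CPM at 18 h, against 28.7 to 32.6 CPM uninduced. None of these groups separated from its uninduced cells.

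ABCA1, the efflux gene that liver X receptors activate when sterols rise, was at 0.998, 0.747 and 0.925 CPM at 6 h and at 1.54, 0.945 and 1.38 CPM at 18 h in SKMEL2. For SKMEL30, ABCA1 was between 2.38 and 2.81 CPM at 6 h and at 2.94, 2.34 and 2.91 CPM at 18 h. Each group overlapped with its uninduced one. The log2 fold changes, -0.15 and 0.38 in SKMEL2 and 0.20 and 0.30 in SKMEL30, had standard errors of 0.22 to 0.31, so a change of this size was not detectable at this depth. With each library left out the 18 h value of ABCA1 lay between 0.20 and 0.56 for SKMEL2 and between 0.08 and 0.51 for SKMEL30.

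Between 18 h and 6 h of induction, 0 of 27 members passed in SKMEL2, where 0% of all genes did (edgeR, with 418 genes and 1 member, ACAT2, at an unadjusted p under 0.05). In SKMEL30 it was 0 of 27 against 0.0200% of genes, and the member with the smallest p was HSD17B7, lower at 18 h by a log2 fold change of -0.24 (standard error 0.08, edgeR adjusted p = 0.771). With the 6 induced libraries of a line set together against the 3 uninduced ones, 0 members passed in SKMEL2 (0.0186% of genes) and 0 in SKMEL30 (0.260%), with 0 and 4 members at an unadjusted p under 0.05, where 712 of 16120 and 1303 of 15026 genes were.

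The response of members was not called different between the lines. At 6 h, 0 of 27 differed by the interaction test in edgeR, where 0% of 17133 genes did (842 genes and 0 members at an unadjusted p under 0.05). This count depended on 1 library. Without the second SKMEL2 library at 6 h, 10 members were at an unadjusted p under 0.05 (lowest edgeR adjusted p = 0.341). With any other library left out, at most 1 member was. The share of all genes was not counted for these fits. At 18 h, 0 of 27 differed by the interaction test, against 0.00584% of genes. TM7SF2 alone had an unadjusted p under 0.05, its response in SKMEL2 being lower than in SKMEL30 by 0.47 on the log2 scale (standard error 0.20, edgeR adjusted p = 0.895). DESeq2 called 0 members in these interactions and 0 between the times.

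Genes around the pathway were read in the same way, against the 75.9% of all genes called between the uninduced lines, 35.8% lower and 40.1% higher in SKMEL2. The list for fatty acid synthesis has 16 genes and includes SREBF1 and TMEM97, the latter a sterol-regulated gene. All 16 were called, 14 lower and 2 higher in SKMEL2, with a median log2 fold change of -1.06. SCD, the stearoyl-CoA desaturase, had the smallest p of them (log2 fold change -2.19, standard error 0.07, edgeR adjusted p = 4.05e-16). Of 12 genes of sterol transport, 8 were called lower and 2 higher, with a median of -0.51, and the oxysterol-binding protein gene OSBP had the smallest p (-1.29, standard error 0.04, edgeR adjusted p = 6.79e-16). The 15 genes of the branches that use mevalonate products for prenylation, dolichol and ubiquinone had 7 called lower and 5 higher (median -0.21), near the share over all genes. The 8 genes of SREBP processing and sterol-regulated degradation had 4 called lower and 3 higher (median -0.22).

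None of these 4 neighbouring lists had a gene called on induction at 6 h or 18 h in either line by edgeR. The smallest adjusted p among them was 0.139 for TMEM97, a sterol-regulated membrane protein, which had a log2 fold change of -0.12 in SKMEL30 at 18 h (standard error 0.03). GGPS1, which makes geranylgeranyl diphosphate from farnesyl diphosphate, had log2 fold changes of 0.15 in SKMEL2 at 6 h (adjusted p = 0.989) and of 0.21 and 0.13 in SKMEL30 at 6 h and 18 h (smallest adjusted p = 0.353, edgeR).

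After the group means were taken out, the 18 synthesis enzymes varied together to a small degree across libraries of a line. The mean Pearson correlation between pairs of enzymes over 9 libraries was 0.156 in SKMEL2 and 0.0893 in SKMEL30, and 0.000254 between all genes in each. The libraries differed in depth, the labels do not describe their handling, and no test was made of the correlations. In SKMEL2 the value rested on the second library at 6 h, in which 3 of 18 enzymes were above their group mean and the mean deviation was -0.11 on the log2 scale. Without it the mean correlation was 0.0396. In SKMEL30 it was between 0.0210 and 0.125 with any library left out. CYP51A1, the lanosterol demethylase, and MSMO1, the methylsterol oxidase, were among the most alike, with r = 0.933 in SKMEL2 and r = 0.807 in SKMEL30. Other pairs were opposed, the farthest being SC5D with MVD in SKMEL2 (r = -0.921) and IDI1 with MVD in SKMEL30 (r = -0.902), and 99 and 93 of the 153 pairs had a positive r.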

How the data were processed

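The values deposited by the authors are expected counts per gene for 58051 genes in 18 libraries, not scaled for depth, of which 12.3% are not whole because RSEM divides reads that align to several genes. The study's methods name Cutadapt, STAR, Samtools and RSEM with an Ensembl annotation of GRCh38, and the submitters' processing notes give cutadapt 1.5, Trimmomatic 0.36, STAR 2.2.2a, SAMtools 1.8 and RSEM 1.3.0. The methods name other versions of Cutadapt and STAR and no Trimmomatic, and which were run is not settled by these sources. Values of 12 members were not whole in some library, so their reads are shared in part with other genes. Symbols were matched for 95.8% of gene identifiers.

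Expected counts were rounded. In R 4.3.3 with edgeR 4.0.16, genes were filtered by filterByExpr, scaled by TMM and tested with the quasi-likelihood test, p-values being adjusted over all genes by Benjamini-Hochberg. Each line was fitted from its own 9 libraries (16120 genes in SKMEL2, 15026 in SKMEL30), and all 18 for comparisons between lines (17133 genes). A gene is called at an adjusted p under 0.05. Standard errors are the log2 fold change over the square root of F. Levels are CPM from the fit of 18 libraries, and lengths come from GENCODE v44. Common biological coefficients of variation were 8.36% in SKMEL2 and 4.11% in SKMEL30. The steps were tested on simulated data. Floors cover counting error only.

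Members and lists were chosen with earlier results of these data known. Values per library are given for INSIG1, SREBF2, HMGCS1 and ABCA1 and for the 2 members with the smallest p in each comparison of an induced with the uninduced group, and members called between the lines by value or fold change. Of other lists, only some of the genes with the smallest p are named, and not for every list and comparison. Alternatives were DESeq2 1.42.0, RLE factors, no filter, at least 10 counts in every library, the replicate number as a block, only the libraries compared, all 18 libraries, and each library left out. Library totals in place of TMM were added after seeing the data. All 18 columns were matched to samples.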

Additional observations from a re-analysis of the deposited data

How the results depend on the processing

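The count of members called on induction, between times or between the lines' responses was 0 in all 152 alternatives compared, and between the uninduced lines it was 22 to 24 of 27 under other tools and scalings and a stricter filter (23 as reported), 22 of 29 with no filter, and 21 to 23 with each library left out. With the replicate number as a block, the count between the uninduced lines was 22. The labels do not say whether samples of the same number were paired. Same-number correlations were above 0.1 in 3 of 9 pairs in SKMEL2 and 1 of 9 in SKMEL30, which cannot settle it. The median log2 fold change between the uninduced lines was -1.03 where every library had to hold 10 counts and -0.98 with library totals alone, a scaling that moves the median of all genes by 0.10. SC5D was then 0.04. With each library left out, the members' median ranged from -1.13 to -0.98 between the lines, from -0.03 to 0.09 at 6 h, -0.01 to 0.05 at 18 h and -0.08 to 0.02 between times in SKMEL2, from -0.04 to -0.01 at 6 h, -0.05 to -0.02 at 18 h and 0.00 to 0.01 between times in SKMEL30, and from 0.00 to 0.10 at 6 h and 0.01 to 0.08 at 18 h for the difference in response. The mean correlation lay between 0.0396 and 0.220 (SKMEL2) and between 0.0210 and 0.125 (SKMEL30).

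Single members near 0 changed sign with a library left out. INSIG1 ranged from -0.03 to 0.11 at 6 h and from -0.04 to 0.09 at 18 h for SKMEL2, and for SKMEL30 from -0.09 to 0.01 and -0.06 to 0.03. SREBF2 ranged from -0.02 to 0.16 and from -0.02 to 0.04 in SKMEL2, HMGCS1 from -0.03 to 0.07 at 18 h in SKMEL2, and ABCA1 from -0.33 to 0.00 at 6 h in SKMEL2 and from -0.01 to 0.42 at 6 h in SKMEL30. Values not called also moved: EBP at 6 h (0.09 to 0.20), SREBF1 (0.13 to 0.25) and NPC1 (0.08 to 0.18) at 18 h in SKMEL2, and SQLE (-0.13 to -0.07) and CYP51A1 (-0.09 to -0.04) at 6 h and FDPS (-0.11 to -0.05) at 18 h in SKMEL30. The cause was not tested. Only 3 libraries per group limit the precision, and transcripts under 3 counts cannot be told from none.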
